A study of Homo sapiens with 12 samples.

Results

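The genes for 7 ETS transcription factors with known roles in epithelial cells, ELF3, EHF, ELF5, ETS1, ETS2, ETV4 and ETV5, were examined for ChIP-exo peak pairs in DCIS.COM cells. A locus was the gene body of a member on hg19 with 20 kb added on each side, and a peak pair belonged to a locus when its midpoint lay inside. These are 7 of the 20090 protein-coding genes on chromosomes 1 to 22 and X of the annotation used, and their loci held 1783 of the 2591856 peak pairs listed over 11 libraries. Some loci also overlapped another protein-coding gene: RNPEP at ELF3, CAT at ELF5, DHX8 at ETV4 and DGKG at ETV5. Pairs in such stretches were counted for the member. ChIP-exo trims immunoprecipitated DNA with an exonuclease up to the crosslinked protein, and a peak pair joins the borders found on both strands.

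DCIS.COM is a basal-type human breast cell line that forms lesions like ductal carcinoma in situ when grafted. Control cells, which the labels call Non-scrambled control (NS), and cells with BCL9 knockdown (BCL9-KD) were compared. The study's methods describe the knockdown as a single shRNA against BCL9 and the control as a non-silencing construct. An antibody against serine-phosphorylated STAT3 (pS727, here pSTAT3) and an antibody against BCL9 were each used on 3 control and 2 knockdown libraries of cells grown in medium with horse serum, and an antibody against CTCF on 1 control library. STAT3 is a signal-activated transcription factor, BCL9 a co-activator best known from Wnt signalling, and CTCF an insulator protein that served as the positive control. Loss of the BCL9 protein cannot be checked from peak lists.

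ETS factors share a DNA-binding domain that contacts a GGAA core, and they differ in where they are made and in which signals reach them. ELF3, EHF and ELF5 form the epithelium-specific branch, and ELF5 is known for its part in the differentiation of mammary luminal progenitors and milk-producing cells. ETS1 and ETS2 are activated by phosphorylation downstream of RAS and ERK, and ETV4 and ETV5, of the PEA3 branch, are known targets and effectors of FGF and ERK signalling.

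The leading site of each locus, meaning the merged 100 bp windows round the midpoints that were found in most of the 10 pSTAT3 and BCL9 antibody libraries, is printed below to show what DNA lies under it. Each sequence gives 100 bases of the plus strand of hg19 from 5′ to 3′ round the median midpoint of the site. Capitals mark matches to the strings searched on both strands, which were TGAGTCA for AP-1, TGACGTCA for CRE, TTCCNGGAA for STAT, CCGGAAGT and AGGAAGT for ETS, GGAATG for TEAD, TTGCGCAA for C/EBP, ATCAAAG for TCF/LEF and a string for CTCF.
ELF3 site 1, chr1:202004054-202004153: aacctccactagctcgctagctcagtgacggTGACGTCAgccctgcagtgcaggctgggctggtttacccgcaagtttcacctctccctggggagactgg
EHF site 1, chr11:34676555-34676654: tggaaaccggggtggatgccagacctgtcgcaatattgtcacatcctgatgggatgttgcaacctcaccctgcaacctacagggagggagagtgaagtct
ELF5 site 1, chr11:34517227-34517326: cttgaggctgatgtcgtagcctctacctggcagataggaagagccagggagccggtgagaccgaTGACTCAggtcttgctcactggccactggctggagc
ETS1 site 1, chr11:128318539-128318638: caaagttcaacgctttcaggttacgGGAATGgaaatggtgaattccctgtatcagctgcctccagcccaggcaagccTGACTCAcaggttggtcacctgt
ETS2 site 1, chr21:40173095-40173194: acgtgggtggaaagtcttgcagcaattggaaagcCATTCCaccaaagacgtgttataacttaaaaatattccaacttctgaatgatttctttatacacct
ETV4 site 1, chr17:41608221-41608320: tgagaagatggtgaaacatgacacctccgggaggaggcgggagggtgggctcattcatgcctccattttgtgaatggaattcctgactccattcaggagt
ETV5 site 1, chr3:185815626-185815725: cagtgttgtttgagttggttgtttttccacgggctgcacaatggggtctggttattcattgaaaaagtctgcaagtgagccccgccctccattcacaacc
The ELF3 site held a CRE string, the ETS1 site an AP-1 and a TEAD string, the ETS2 site a TEAD string and the ELF5 site an AP-1 string, while the EHF, ETV4 and ETV5 sites held none of the strings in these 100 bases. None of the 7 printed sequences held a STAT or an ETS string. The ELF3 site lay between genes 24389 bp downstream of the canonical transcription start site (TSS), and the ETS2 site lay between genes at -4708 bp from its TSS. The ETS1 site lay between genes beyond the 3′ end of ETS1, and the EHF, ELF5 and ETV5 sites lay in introns of these genes. The ETV4 site lay in an intron of ETV4 that the annotation also assigns to DHX8.

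ETS2 and ELF3 carried the most pSTAT3 peak pairs for their length, and ELF5 carried about as many as an ordinary gene. Peak pairs per 100000 listed pairs of the library and per 100 kb of locus are called density here, so that lists and loci of unequal length can be read side by side. The mean pSTAT3 density over 5 libraries was 27.8 at ETS2, 26.6 at ELF3, 15.5 at EHF, 10.2 at ETS1, 7.54 at ETV4, 6.70 at ETV5 and 3.04 at ELF5, against a median of 3.17 over all 20090 gene loci. By this mean ETS2 lay above 99.3% of all gene loci, ELF3 above 99.2%, EHF above 95.9%, ETS1 above 90.4% and ELF5 above 48.2%. These values are descriptions, since the genes were chosen as a family with earlier results of these data known, and no test was made over it.

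At ELF3, also known as ESE-1, the pSTAT3 density was 35.9, 24.7 and 28.2 in control replicates 1 to 3 and 22.97 and 21.0 in knockdown replicates 1 and 2. The BCL9 antibody gave 42.5, 49.3 and 10.9 in control cells and 29.7 and 23.5 in knockdown cells. All 5 pSTAT3 libraries lay within a range of 21.0 to 35.9, whereas the control BCL9 libraries spread from 10.9 to 49.3, on 6, 6 and 8 listed pairs. ELF3 lies on 1q, where gene loci had a higher median density than those on 1p in every one of the 11 libraries, CTCF included (7.19 against 4.91). Among the 999 gene loci on 1q, ELF3 still lay above 92.5% to 98.2% in the pSTAT3 libraries and above 72.3% to 94.9% in the BCL9 antibody libraries.

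At ETS2 the pSTAT3 density was 46.4, 18.7 and 21.0 in control cells and 27.4 and 25.8 in knockdown cells. The highest value came from control replicate 1, whose list name carries 1 number where those of control replicates 2 and 3 and the knockdown libraries carry 3; the part of this in the value was not tested. For BCL9 it was 17.5, 0 and 16.9 in control cells and 24.5 and 23.9 in knockdown cells. A locus at 0 means that no pair passed the limit of the list, since the weakest listed pair of a library had 3 to 9 tags.

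At EHF, also known as ESE-3, both antibodies gave like mean densities over 5 libraries, 15.5 for pSTAT3 and 16.8 for BCL9. The pSTAT3 density was 14.3, 16.0 and 13.3 in control cells and 15.2 and 18.5 in knockdown cells, the narrowest spread among the loci rich in pairs. The BCL9 antibody density was 8.48, 24.6 and 17.2 in control cells, on 2, 5 and 21 listed pairs, and 16.5 and 17.4 in knockdown cells.

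At ETS1, the longest locus with 168.8 kb, the pSTAT3 density was 17.4, 4.80 and 9.34 in control cells and 9.69 and 9.97 in knockdown cells. The BCL9 antibody density ran from 6.19 to 9.58 over the 5 libraries, with both conditions inside this range. ETV4 had a pSTAT3 density of 6.63 to 8.45 and ETV5 of 5.09 to 7.80 over the 5 libraries, and for these PEA3-branch genes the conditions overlapped.

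ELF5 stood apart from the other 6 genes in the opposite way. Its pSTAT3 density was 0.97, 3.52 and 3.09 in control cells and 5.01 and 2.58 in knockdown cells, on 1 to 18 listed pairs. In 2 of the 5 BCL9 antibody libraries no pair was listed there. The CTCF library, by contrast, listed 40 pairs at ELF5, a density of 10.1 that lay above 86.4% of gene loci. The strongest of them, with 73 tags, lay in the added flank outside the gene body of ELF5, in a locus that also overlaps CAT. EHF and ELF5 are neighbours on chromosome 11, with 95.9 kb between their gene bodies, and EHF showed the reverse, with a CTCF density of 3.19, above 29.7% of gene loci. In each of the 5 pSTAT3 libraries the density at EHF was higher than at ELF5. Among control pSTAT3 libraries the ranges of neighbours in the order ELF3, ETS2, EHF, ETS1, ETV4, ETV5 and ELF5 overlapped except between ETS2 and EHF and between ETV5 and ELF5. In control BCL9 antibody libraries all neighbours in the order of means overlapped.

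**Figure D1:**
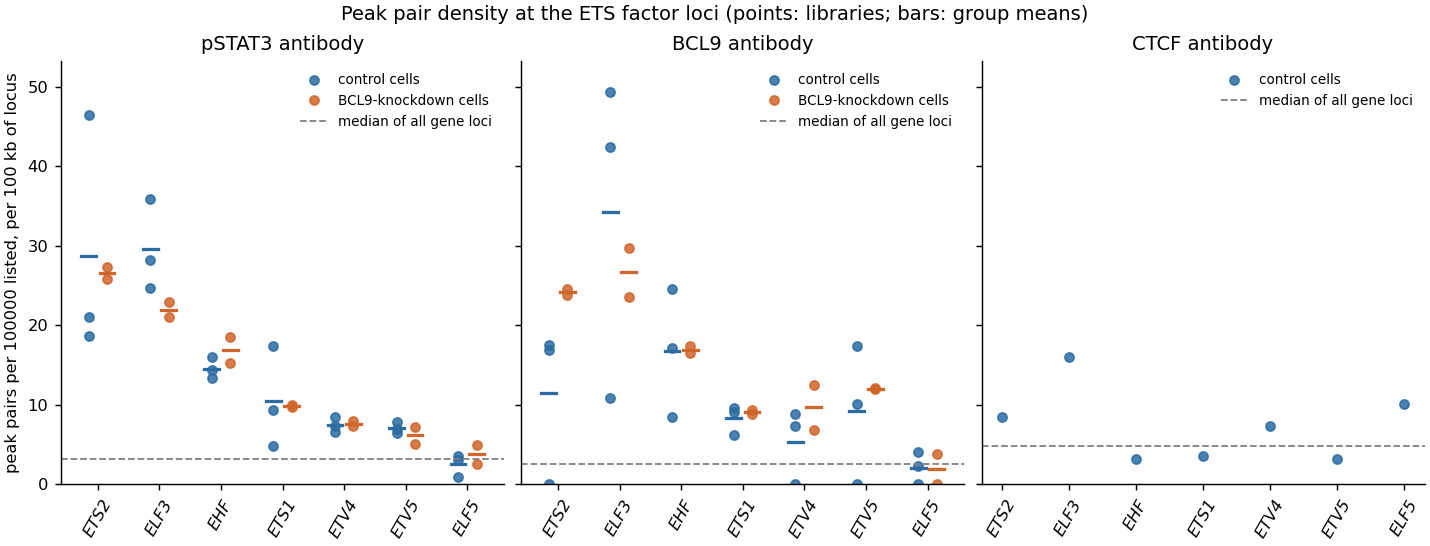
Peak pairs per 100000 listed pairs and per 100 kb of locus (y axis) at the 7 loci (x axis) for the pSTAT3, BCL9 and CTCF antibodies; points are libraries, short bars are means of 3 control or 2 knockdown libraries and the dashed line is the median of 20090 gene loci. All members except ELF5 lie above the median in every pSTAT3 library, with ETS2, ELF3 and EHF highest by mean. ELF5 lies near the median at 0.97 to 5.01, and in the CTCF panel ELF5 (10.1) is above EHF (3.19).

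The 7 loci together took 2.92 to 4.77 times their share of the genome in the pSTAT3 libraries and 2.97 to 3.91 times in the BCL9 antibody libraries, against 1.91 times in the CTCF library. Listed pairs per library ran from 24728 to 493174, and those in the 7 loci from 17 to 369. Neighbouring pairs often marked the same place, with 1598 pairs of the pSTAT3 and BCL9 antibody lists in 509 sites, so a count of pairs is not a count of separate sites. Among marker genes, the basal epithelial LAMB3 (40.6), KRT17 (26.5), KRT5 (19.8), TP63 (19.6) and KRT14 (6.07) had a median pSTAT3 density of 19.8, against 7.78 for 6 luminal markers, 3.40 for 5 blood and endothelial markers and 2.01 for 4 neuronal and liver markers, of which GFAP stood apart with 20.8. Among the luminal markers KRT8 (15.0), KRT18 (11.8) and FOXA1 (11.1) lay above KRT14, and ESR1 (4.51), GATA3 (4.03) and PGR (1.63) below it. Occupancy at a gene is no measure of its expression.

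The question of the knockdown comparison was whether pSTAT3 and the BCL9 antibody's target sit differently at these genes when BCL9 is reduced. ETS2 and EHF had more strong pSTAT3 pairs in both knockdown libraries than in any control library, while the other 5 genes overlapped. Strong pairs are the 98665 pairs of highest signal in each pSTAT3 list, the length of the shortest list, with ties at the end of the list drawn at random. The control lists held 118933, 98665 and 374089 pairs, and the knockdown lists 415624 and 493174. The cut fell at 4, 6 and 8 tags in the control lists and at 9 and 10 in the knockdown lists. Both knockdown lists were longer than every control list, so condition and list length cannot be told apart. ETS2 had 27, 11 and 24 strong pairs in control cells and 39 and 32 in knockdown cells. The means were 20.7 ± 8.505 (SD, n = 3) and 35.5 ± 4.95 (SD, n = 2), a log2 ratio of 0.77 with a pseudocount of 0.5 (exact two-sided permutation test, p = 0.2). EHF had 12, 13 and 16 strong pairs in control cells and 20 and 28 in knockdown cells, and its groups did not overlap either. The means were 13.7 ± 2.08 (SD, n = 3) and 24.0 ± 5.66 (SD, n = 2), a log2 ratio of 0.79 (exact two-sided permutation test, p = 0.1). With 10 assignments of 5 libraries the smallest possible p is 0.1, so no gene can pass 0.05, and none of 17993 genes tested did, adjusted or not. Knockdown libraries lay above control libraries without overlap at 2 of the 7 members and at 5.89% of all genes tested, and the reverse held at 0 members and at 10.7% of genes. Both results depend on the choice of list length. With all listed pairs per 100000 the log2 ratio was -0.11 at ETS2 and 0.20 at EHF, the groups overlapped at both, and 13.3% of 19979 genes had knockdown libraries above control libraries without overlap.

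ELF3 had 20, 12 and 27 strong pSTAT3 pairs in control cells and 22 and 19 in knockdown cells, so that the conditions overlapped with a log2 ratio of 0.06. With all listed pairs per 100000, however, both knockdown libraries lay below all 3 control libraries at ELF3, with means of 14.6 ± 2.81 (n = 3) and 10.8 ± 0.684 (n = 2; exact two-sided permutation test, p = 0.2), an outcome found at 6.99% of the 19979 genes. ETS1 had 30, 8 and 20 strong pairs in control cells and 23 and 27 in knockdown cells. ETV4 had 5 to 7 strong pairs in every library, ETV5 had 3 to 8 and ELF5 had 0 to 3, with the conditions overlapping at each.

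For the BCL9 antibody, at the length of its shortest list, 24728 pairs, ETS2 alone among the members had groups that did not overlap. The control lists held 28690, 24728 and 148755 pairs, with the cut at 5, 9 and 10 tags. The knockdown lists held 95586 and 336493 pairs, with the cut at 10 and 12 tags. Control lists 1 and 2 were shorter than both knockdown lists, and the part of this in the values was not tested. ETS2 had 2, 0 and 5 strong pairs in control cells and 6 and 7 in knockdown cells, with means of 2.33 ± 2.52 (n = 3) and 6.50 ± 0.707 (n = 2; exact two-sided permutation test, p = 0.2). Such a higher value after knockdown was found at 1 of the 7 members and at 4.99% of 12153 genes tested, and a lower one at 0 members and at 3.41% of genes. With all listed pairs per 100000 ETS2 was again the only member with groups apart, higher after knockdown as were 18.6% of 19563 genes (lower, 4.04%). ELF3 had 6, 6 and 3 strong BCL9 pairs in control cells and 1 and 7 in knockdown cells, EHF had 0, 5 and 8 against 4 and 8, and ETS1 had 2, 4 and 7 against 5 and 9. ELF5 had 1 strong pair in 1 control library and none in the others. The knockdown effect itself, as a difference of mean log2(pairs per 100000 + 1), was compared between the antibodies by permuting the condition within each antibody. The largest difference was at ETS2, with a change of 0.01 for pSTAT3 and 1.62 for the BCL9 antibody (exact permutation test, p = 0.42), and the p of the other 6 genes ran from 0.57 to 0.99. The change of 1.62 includes control BCL9 replicate 2, which listed no pair at ETS2.

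**Figure D2:**
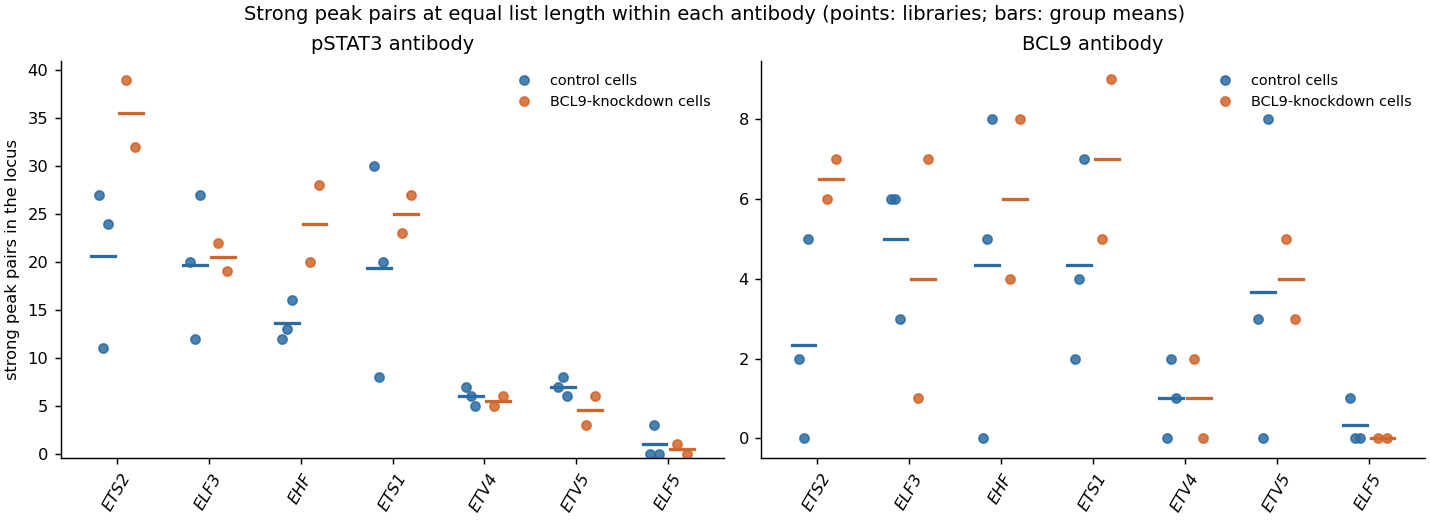
Number of strong peak pairs in each locus (y axis) at equal list length, 98665 pairs for pSTAT3 and 24728 for the BCL9 antibody, in control and knockdown libraries of the 7 genes (x axis); points are libraries and bars are means. For pSTAT3 both knockdown libraries lie above all control libraries at ETS2 (32 and 39 against 11 to 27) and EHF (20 and 28 against 12 to 16), and for the BCL9 antibody only at ETS2.

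Between the antibodies, no member had groups without overlap at the common list length of 24728, an outcome that 6.74% of 13260 genes tested had in either direction, 3.01% with pSTAT3 higher and 3.73% with the BCL9 antibody higher. ETV5 came nearest, with 0, 0, 1, 0 and 1 strong pairs in the pSTAT3 libraries (control replicates 1 to 3, then knockdown replicates 1 and 2) and 3, 0, 8, 5 and 3 in the BCL9 antibody libraries. The means were 0.4 ± 0.548 and 3.80 ± 2.95 (SD, n = 5 each), and the exact two-sided permutation test gave p = 0.0476, or 0.290 after Benjamini-Hochberg adjustment over all genes tested. With all listed pairs the exact test for ETV5 gave p = 0.262, and of the 10 fits that left out 1 library only that without control BCL9 replicate 2 stayed below 0.05 (exact p = 0.00794, against 0.0556 to 0.0794 in the others). At ETS2 the order was the other way, with 7, 4, 11, 8 and 11 strong pairs in the pSTAT3 libraries and 2, 0, 5, 6 and 7 in the BCL9 antibody libraries (exact two-sided permutation test, p = 0.0794), and p was 0.0238 in the exact test without control pSTAT3 replicate 2. ELF3, ETS1, EHF, ETV4 and ELF5 had p from 0.357 to 1.0 in the same exact test. None of the 13260 genes passed an adjusted p of 0.05, and 16.4% had an unadjusted p below it. Each group of 5 pooled control and knockdown libraries, so BCL9 antibody libraries of BCL9-KD cells were among them. The common cut fell at 5 to 12 tags in the BCL9 antibody lists and at 8 to 24 in the pSTAT3 lists. The groups thus also differ in how much of each list was used.

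Most sites of the loci were found in a single library, and a smaller number recurred. Of the 509 sites of the 7 loci, 391 were found in 1 library alone, 118 in at least 2 and 35 in at least 5 of the 10 libraries. Of the 118 sites, 77 lay in introns, 28 between genes and 13 in exons, and 27 lay within 1 kb of an annotated TSS of the member. ELF5 had no site in 5 libraries or more, ELF3 had 9, ETS1 had 8 and ETS2 and EHF had 6 each. Among the 118 sites, 20 shared a window with CTCF (genome-wide 15.4% of 157650 such sites), and among the 35 sites 34 had both antibodies (genome-wide 97.3% of 32797). The limit nearly fixes this last share, since each antibody has 5 libraries and a site in more than 5 must hold both.

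EHF site 1 was the only site of the 7 loci found in all 10 libraries, as were 2908 sites genome-wide. It lies in an intron, 33965 bp downstream of the canonical TSS. The strongest pair there ranked at 11.1%, 6.69% and 9.82% of the list in control pSTAT3 libraries, counted from the strongest, and at 4.01% and 0.92% in knockdown libraries. In BCL9 antibody libraries it ranked at 76.0%, 33.0% and 1.21% in control cells and at 50.4% and 0.12% in knockdown cells. In control BCL9 replicate 1 it had 5 tags, the lowest count in that list. Sites 1 and 2 lie under 1 kb apart, and site 2 was found in 9 of the 10 libraries. Both overlapped a window of the CTCF library, although the strongest CTCF pair of the EHF locus had 6 tags and ranked at 53.5%. Of the 6 EHF sites in at least 5 libraries, 3 shared a window with CTCF, against 22.9% of such sites genome-wide.

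ELF3 site 3, 12631 bp downstream of the canonical TSS, held the strongest pSTAT3 pair of the locus in 4 of 5 libraries. It ranked at 9.59%, 10.97% and 0.83% in control pSTAT3 libraries and at 0.85% and 2.45% in knockdown libraries. The BCL9 antibody lists held it in control replicate 3 (3.03%) and in both knockdown libraries (80.2% and 0.25%). ELF3 site 2 spans the canonical TSS of ELF3 and was found in 9 of the 10 libraries, at ranks of 12.7% to 29.3% in pSTAT3 libraries.

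ETS2 site 2, at -18206 bp from the canonical TSS, held the strongest pSTAT3 pair of the ETS2 locus in 4 of 5 libraries; in control replicate 3 site 3 ranked higher (1.25%). It ranked at 3.15%, 0.74% and 1.93% in control pSTAT3 libraries and at 0.31% and 0.13% in knockdown libraries, with 22, 35 and 33 tags in control cells and 67 and 87 in knockdown cells. For BCL9 it was listed in 1 control library (3.03%) and in both knockdown libraries (0.98% and 9.23%). Tags are not scaled between libraries and ranks move with the length of the list, so these values were not compared by a test. ELF3 site 3 and ETS2 site 2 are printed as above, and were chosen for printing after their values were seen.
ELF3 site 3, chr1:201992296-201992395: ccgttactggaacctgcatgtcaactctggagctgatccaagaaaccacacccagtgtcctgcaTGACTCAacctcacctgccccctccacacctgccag
ETS2 site 2, chr21:40159597-40159696: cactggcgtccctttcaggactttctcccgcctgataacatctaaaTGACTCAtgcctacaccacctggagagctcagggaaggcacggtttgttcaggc
Both held an AP-1 string, which is TGACTCA on this strand. AP-1, the dimer of FOS and JUN proteins, is known to bind next to STAT3 and ETS factors at many enhancers. The midpoint of the strongest pSTAT3 pair of the locus lay within 24 bp of the centre of an AP-1 string in all 5 pSTAT3 libraries at ELF3, and within 33 bp in all 5 at ETS2. At EHF the nearest AP-1 string was 1132 to 1943 bp away from the strongest pSTAT3 pair, at ETV4 626 to 1977 bp and at ETV5 1425 to 4916 bp, farther than at ELF3 and ETS2 in every pSTAT3 library. ETS1 and ELF5 were mixed, with the strongest pSTAT3 pair within 50 bp of an AP-1 string in 2 of 5 libraries each, at distances of 17 to 215 bp at ETS1 and 2 to 5919 bp at ELF5. For the BCL9 antibody the strongest pair lay within 50 bp of an AP-1 string in 2 of 5 libraries at ELF3. At ETS2 this was so in 2 of the 4 BCL9 antibody libraries with a pair. How often the strongest pair of any gene locus lies this near was not counted. The loci held from 9 AP-1 strings at ELF3 to 29 at ETS1, and a match is not a shown binding site.

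**Figure D3:**
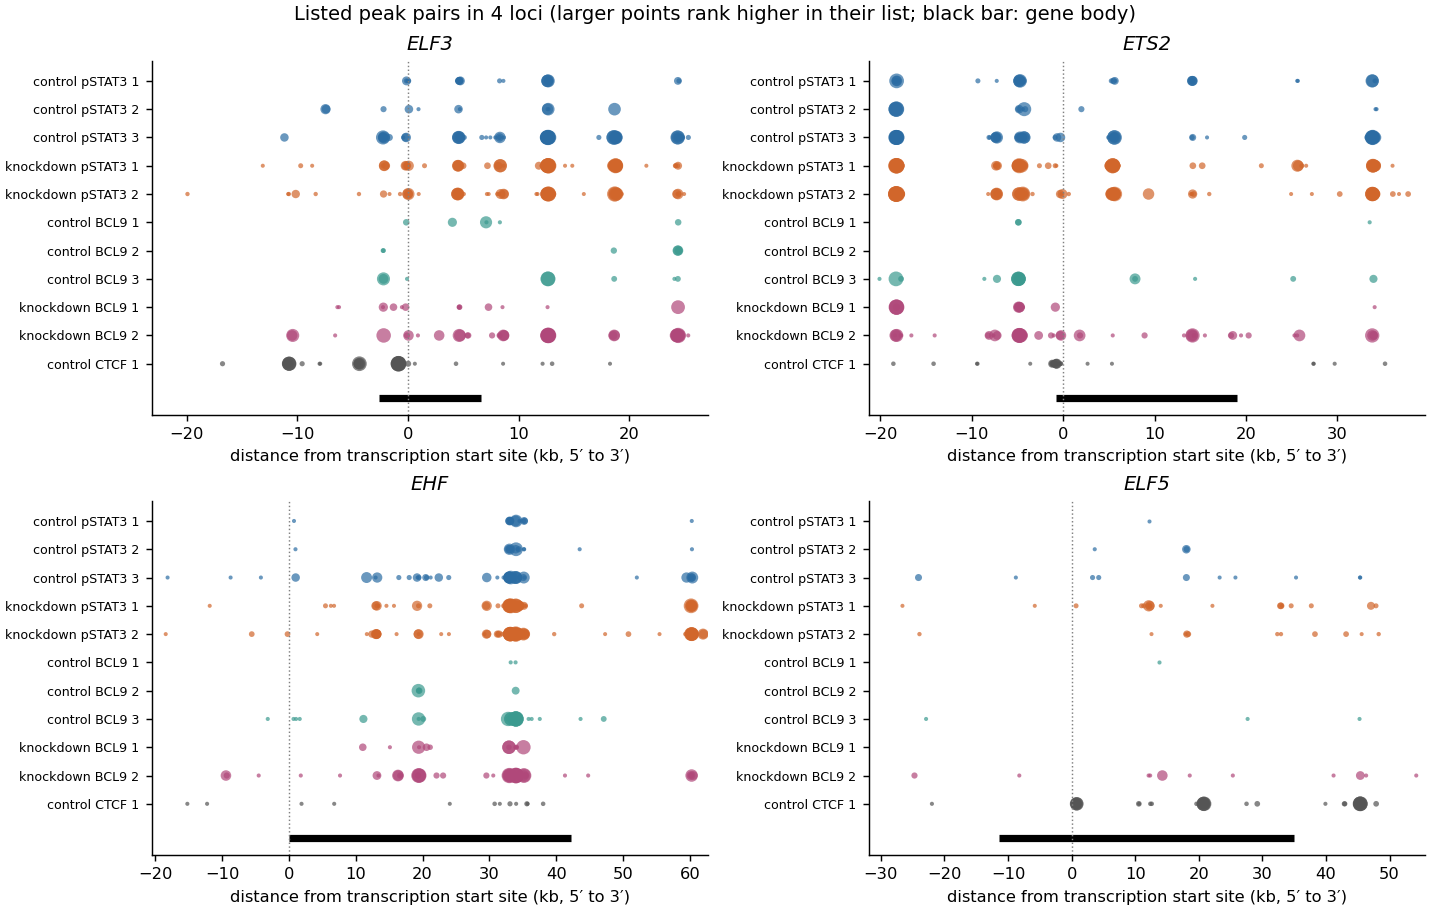
Listed peak pairs of the 11 libraries (rows) by distance from the canonical TSS in kb (x axis, in the direction of transcription) at ELF3, ETS2, EHF and ELF5; larger points rank higher in their list, and the black bar is the gene body. Pairs of both antibodies stack at the same distances, such as 34.0 kb at EHF and 12.6 kb at ELF3, while at ELF5 the large points belong to the CTCF library.

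Consensus regions, which at least 2 of the 3 control libraries had to cover, numbered 42 for pSTAT3 and 12 for the BCL9 antibody in the 7 loci. ETS1 had 11 such pSTAT3 regions, ETS2 10, ELF3 9, EHF 6, ETV5 3, ETV4 2 and ELF5 1. The strings were searched in the 100 bases round the centre of each region, not over its whole length, so a region without a match there can hold one farther out. An AP-1 string lay in these central bases of 12 of the 42 regions, or 28.6%, against 25.2% of all 37044 control pSTAT3 regions. In knockdown cells the order was the other way, with 10 of 55 regions, or 18.2%, against 23.4% of all 63829. The 12 control regions were 5 at ETS2, 3 at ETS1, 2 at ELF3 and 1 each at EHF and ELF5, and none at ETV4 or ETV5. Neither ETS string was in the central bases of the 42 regions (4.19% of all regions had at least 1 there), and the STAT string was in none of them (0.648% of all). The central bases of 1 knockdown pSTAT3 region at ELF3, which overlaps a control region, did hold the ETS string AGGAAGT. So did those of 1 of the 26 knockdown BCL9 antibody regions, at ETS1 (3.85%, against 4.23% of all 21228). For the BCL9 antibody an AP-1 string lay in the central bases of 1 of 12 control regions, against 13.8% of all 11623, and a TEAD string in those of 3, against 12.03%. A missing match says only that these letters are not in these 100 bases.

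Regions shared by both antibodies in control cells, by at least 1 bp, were found at 5 of the 7 members, while 19.4% of all 20090 genes had at least 1. ELF3 had 4 shared regions (2.21% of genes had 4 or more), ETS1 had 3, EHF 2 and ETS2 and ETV5 1 each, 11 in all. Of these 11 regions 8 were also shared after BCL9 knockdown and 4 shared a window with CTCF. ETV4 and ELF5 had none in control cells. In knockdown libraries, where both libraries had to hold the window, 6 of the 7 members had a shared region, against 30.0% of all genes, with 5 at ELF3, 4 at EHF, 3 each at ETS1 and ETV4, 2 each at ETS2 and ETV5 and 0 at ELF5. These counts follow the length of the lists, since with the 24728 strongest pairs of each list 2 shared control regions were left, 1 at ETS1 and 1 at EHF. Without control BCL9 replicate 3, the longest list of that group, also 2 were left.

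**Figure D4:**
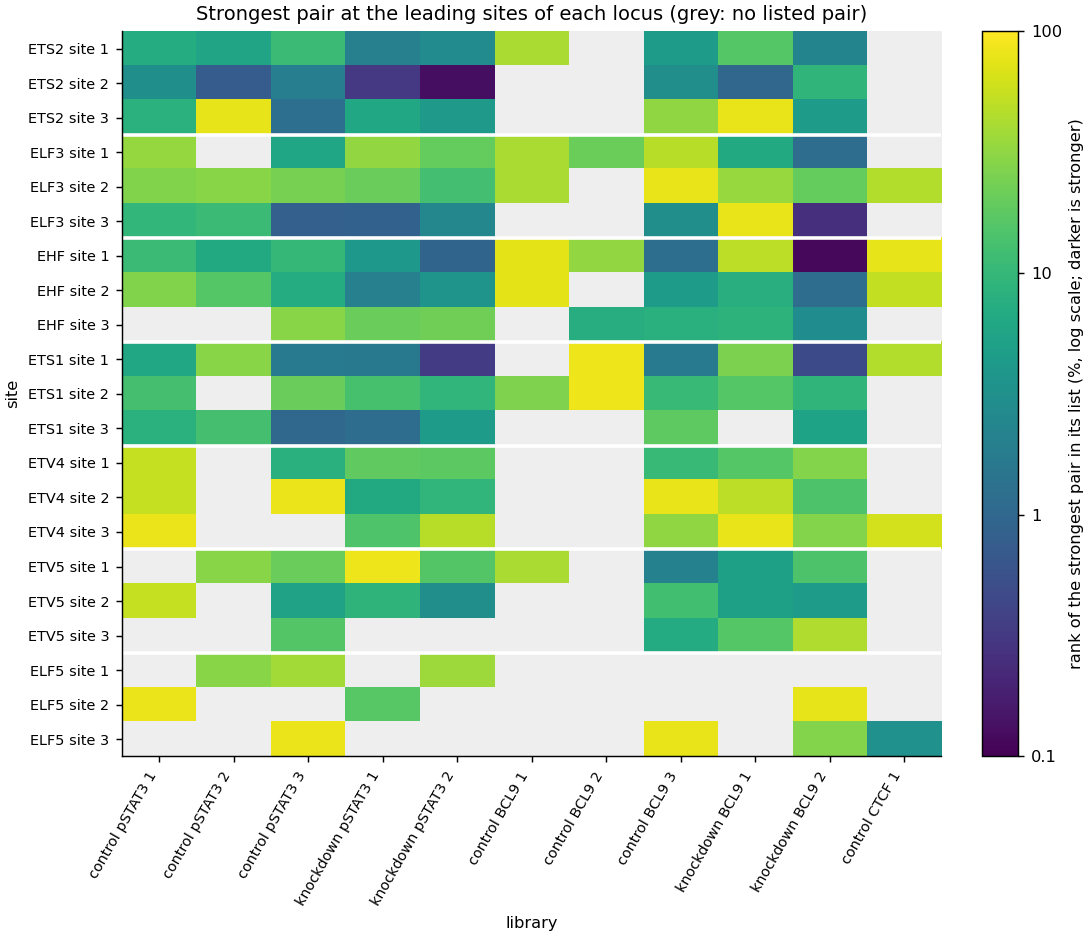
Rank of the strongest pair, as percent of its list on a log scale (colour, darker is stronger, grey is no listed pair), at up to 3 leading sites of each gene (rows) in the 11 libraries (columns). ETS2 site 2 is dark in all pSTAT3 libraries (0.13% to 3.15%), the 3 ELF5 sites are mostly grey, and the CTCF library is strong at ELF5 site 3 (3.31%). ELF5 site 3 lies in the added flank, outside the gene body.

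At equal list length no site of the 7 loci was found in both knockdown pSTAT3 libraries and in no control library, out of 91 sites, where 1.18% of sites genome-wide were, and none in all 3 control libraries and no knockdown library (0.377% genome-wide). For the BCL9 antibody 2 of 38 sites were found in both knockdown libraries alone (1.64% genome-wide), at chr11:128321577-128321738 between genes beyond ETS1 and at chr11:34677683-34677856 in an intron of EHF. At this list length 0 of the 38 sites were in all 5 BCL9 antibody libraries (4.92% genome-wide), and 10 of the 91 were in all 5 pSTAT3 libraries (7.11% genome-wide).

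Promoters took an unequal part among the genes. At ETV4, 54 of the 107 listed pSTAT3 pairs (50.5%) and 23 of the 44 BCL9 antibody pairs lay within 1 kb of an annotated ETV4 TSS, of which there are 8. At ETS2 this was so for 11 of 235 pSTAT3 pairs (4.68%), at EHF for 11 of 195 (5.64%), at ETS1 for 29 of 253 (11.5%), at ETV5 for 14 of 102 (13.7%) and at ELF3 for 33 of 183 (18.0%). At ELF5 1 of 43 pSTAT3 pairs lay there, and none of the 15 BCL9 antibody pairs. In the CTCF library 13 of the 23 pairs at ETS2 lay within 1 kb of a TSS.

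The other 21 human ETS genes of the annotation had a median pSTAT3 density of 3.00, near the 3.17 of all genes, and a median BCL9 antibody density of 3.00, against 10.2 and 10.3 for the 7 members. The members were chosen with earlier results of these data known, so this contrast is a description and was not tested. The highest in pSTAT3 pairs per 100000 listed were ETV6, a repressor of the TEL group, with 37.3, ERG with 14.3 and ELK3, a ternary complex factor that works with SRF, with 10.4, where the members ran from 2.62 at ELF5 to 17.3 at ETS1. Per 100 kb of locus ETV6 had a density of 13.1, ELK3 of 8.99 and ERG of 4.44, the last being a long gene. By density the highest of the 21 was ERF with 14.8, above the members ETS1, ETV4, ETV5 and ELF5. The ELF group (ELF1, ELF2, ELF4) had a median density of 3.83, the SPI group of blood-cell factors 1.86 and the epithelial factor SPDEF 1.29. In strong pSTAT3 pairs, knockdown libraries lay above control libraries without overlap at 2 of these 21 genes and below at 1. For the BCL9 antibody they lay above at 1 and below at none.

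Over the 11 libraries ELF3 was the only member with at least 5 listed pairs in each, and the genes most like it in log2(pairs per 100000 + 1) were MFF (Pearson r = 0.921) and APOBEC3B (r = 0.907) among 903 genes compared. These r describe libraries that differ in antibody and list length.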

How the data were processed

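ChIP-exo libraries of DCIS.COM cells were used as per-library peak pair lists on hg19: 1 for CTCF and, for each of pSTAT3 and BCL9, 3 from control and 2 from BCL9-KD cells. IgG was not analysed here. The deposited signal is the authors' tag count of a pair scaled by 1 factor per list, so dividing by this factor gave back whole tags, at least 3 to 9 a pair. Bcl2fastq and hg19 are named in the submitters' notes; aligner and scaling were not given in the sources used here. Read depth was not used here, and list length does not stand for it.

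Signals were used only for ranks and tags. Genes came from GENCODE v44 lifted to GRCh37, whose 23 chromosome ends no listed position passed. Members, lists and tests were chosen with earlier results of these data known. All 7 members were named, with up to 3 sites each (most libraries, then lowest mean rank), the 3 other ETS genes with most pSTAT3 pairs per 100000 and, for members with 5 pairs in all libraries, the 2 most correlated genes over 500 kb away. Conditions and antibodies were compared over libraries, labelled as biological replicates, by exact two-sided permutation of mean counts, for all genes with a pair. The counting and tests were checked on simulated data. Alternatives were list length, a minimum of 9 tags, flanks of 5 and 50 kb, the rank of the strongest pair, left-out libraries and a replicate block; weighting of tied pairs was added after seeing the data. Python 3.11.15, numpy 2.4.6, pandas 2.3.3, pysam 0.24.0, matplotlib 3.10.9 and samtools 1.23.1 were used.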

Additional observations from a re-analysis of the deposited data

How the results depend on the processing

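Values are log2 ratios with a pseudocount of 0.5, knockdown over control, unless stated. The number of the 7 members with a higher pSTAT3 value after knockdown was 4; it was 7 with a minimum of 9 tags and 7 by the rank of the strongest pair. For the BCL9 antibody it was 4, and 7 by rank. The number with a higher pSTAT3 than BCL9 antibody value was 3; it was 1 with a flank of 5 kb and 6 by rank. Shared control regions numbered 11; they were 1 when all 3 control libraries were required, 2 at the common list length and 2 with a minimum of 9 tags. Leaving out 1 library gave 3 to 4 members for pSTAT3, 2 to 4 for BCL9 (2 without control replicate 1), 3 to 3 between antibodies and 2 to 8 shared regions (7, 8 and 4 without control pSTAT3 replicates 1, 2 and 3, and 6, 7 and 2 without control BCL9 replicates 1, 2 and 3).

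Directions that turned were as follows, and the cause was not tested. For pSTAT3, ETV5 was 0.26 at the common list length. With all listed pairs ELF3 was -0.41, ETS1 -0.10, ETS2 -0.11, ELF5 0.49 and ETV4 0.032. With a minimum of 9 tags ELF5 was 1.54, ETV4 0.36 and ETV5 0.85. With a flank of 5 kb ELF3 was -0.35. By rank, as differences of -log2 percent rank, ELF5 was 0.88, ETV4 1.27 and ETV5 1.74. For the BCL9 antibody, ELF3 was 0.28 with a minimum of 9 tags, ETS1 was -0.34 with a flank of 5 kb, and ELF3 was 0.37 and ELF5 0.85 with a flank of 50 kb. By rank ELF3 was 2.86 and ELF5 0.93. For pSTAT3 over the BCL9 antibody, ELF3 was -0.22, ELF5 0.47 and ETV4 0.081 with all listed pairs, and ELF3 was -0.15, ELF5 0.82 and ETV4 0.0070 with a minimum of 9 tags. ELF3 was -1.35 and ETS2 -0.27 with a flank of 5 kb, and ELF5 was 0.88, ETV4 0.78 and ETV5 0.10 by rank. Leaving out 1 library, ELF3 ran from -0.19 to 0.35 and ELF5 from -1.58 to 1.00 for pSTAT3, and ELF3 from -1.87 to 0.45, EHF from -0.11 to 1.12 and ETV5 from -0.42 to 1.17 for the BCL9 antibody. Between the antibodies ETS2 came below 0.05 with a minimum of 9 tags (exact p = 0.0317). No exact test between conditions can go below 0.1, so keeping its side of 0.05 says nothing there.

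Deviations of same-numbered libraries had r from -0.07 to 0.14, the highest between the control replicates 3 of both antibodies. Both knockdown pairs between the antibodies gave the same r (0.0068), since 2 libraries deviate from their mean by mirror values. Whether the replicate number marks a shared batch cannot be told from these r. With the replicate number as a block the counts stayed at 4, 4 and 3, and for ETV5 between the antibodies the exact p was 0.125. Short lists limit the BCL9 antibody values: in control replicate 1, 13794 pairs tied at the end of the common list.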

Other observations

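ERF, an ETS repressor that ERK excludes from the nucleus, was singled out after its values were seen. Its BCL9 antibody density was 87.8 in control and 29.0 in knockdown libraries (means of 3 and 2), where ELF3, the highest member, had 34.2 and 26.6; at equal list length the conditions overlapped at ERF. Its pSTAT3 density was 14.8 over 5 libraries. ETV2, a factor of blood and vessel development, had a BCL9 antibody density of 18.3 and a pSTAT3 density of 2.88, also singled out after its values were seen. For the other 21 ETS genes at equal list length, BCL9 antibody libraries lay above pSTAT3 libraries without overlap at 2.

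The stretch of 55.9 kb between the EHF and ELF5 loci, outside both, had a pSTAT3 density of 6.89 to 16.5 over the 5 libraries, with a mean of 10.7.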
